A study of Mus musculus with 4 samples.

Results

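RNA-seq counts of 30 genes that build and sense cholesterol and fatty acids were examined in reconstituted ovaries (rOvaries) from mice treated with the mTOR kinase inhibitor INK128 and from control mice. The 30 genes were a named list of targets and regulators of SREBP (sterol regulatory element binding protein), taken by symbol from a table of 54021 gene symbols, and all 30 were found. An rOvary is a graft that forms under the kidney capsule from primordial germ cells aggregated with fetal gonadal somatic cells, here from C57BL/6 fetuses carrying actin-GFP. Every recipient was a bilaterally ovariectomized young adult female of the second generation of telomerase-deficient mice (G2 Terc-/-, C57BL/6 background), so hosts of both groups had no ovaries of their own and no telomerase, and the graft had its own somatic and germ cells. The grafts were collected about 1 month after transplantation, from 2 rOvaries of recipients that drank water with INK128, set to mouse weight and given in the labels as 0.75 μM per g (replicates 1 and 2), and 2 rOvaries of recipients that did not (replicates 1 and 3, here control 1 and control 3). The study's methods express the dose differently, so the amount taken up is uncertain here. The labels do not say whether the libraries of a group came from separate animals, and the p-values measure only the spread between these libraries, which may be technical.

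Cholesterol is built from acetyl-CoA through mevalonate, isoprenoid diphosphates, squalene and lanosterol, and fatty acids are built from the same acetyl-CoA by ATP-citrate lyase, acetyl-CoA carboxylase and fatty acid synthase. Both routes are switched on by the SREBP transcription factors. SCAP carries SREBP from the endoplasmic reticulum to the Golgi for cleavage when sterols are low, and the INSIG proteins hold it back when sterols are high. mTOR complex 1 is known to promote SREBP activity, and in the ovary cholesterol is the substrate for steroid hormones, with the corpus luteum as its heaviest user.

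The 4 libraries held 19130209 and 23029089 counts with INK128 and 21585292 and 22812603 counts in controls. At that depth 3 counts correspond to 0.13 to 0.157 CPM, counts scaled to a common library total, a floor that covers counting error only, and all 30 genes lay far above it. Levels are given as CPM scaled by TMM factors. The tissue label was checked with lists of cell type markers, and the 2 controls stood apart from each other. Control 3 had little oocyte RNA, with 25.3 CPM over 10 oocyte markers against 757 to 1057 CPM in the other libraries. Its summed level of 10 luteal and steroidogenic markers was the highest, at 13104 CPM, against 4316 and 5510.1 CPM with INK128 and 1053 CPM in control 1. Control 1 in turn held 1753 CPM over 7 markers of Sertoli cells, a cell type of the testis, against 123 to 269.6 CPM elsewhere. Most of this came from Cldn11 (795 CPM) and Aard (665 CPM), while Rhox8 was lowest in control 1, at 41.0 CPM against 51.2 to 113 CPM elsewhere. Granulosa markers (8 genes) summed to 2812 to 7743 CPM and theca markers (4 genes) to 1033 to 1602 CPM, the latter mostly from Aldh1a1 (628 to 1269 CPM). Single markers differed more: Amh, the anti-Müllerian hormone, had 131.5 and 80.5 CPM with INK128, 433 CPM in control 1 and 5.08 CPM in control 3. Cyp17a1, the androgen-making enzyme of theca cells, was at 16.9 CPM in control 1 and 164 to 424 CPM elsewhere. In bulk tissue, fewer cells of a type and less RNA per cell cannot be told apart.

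**Figure D1:**
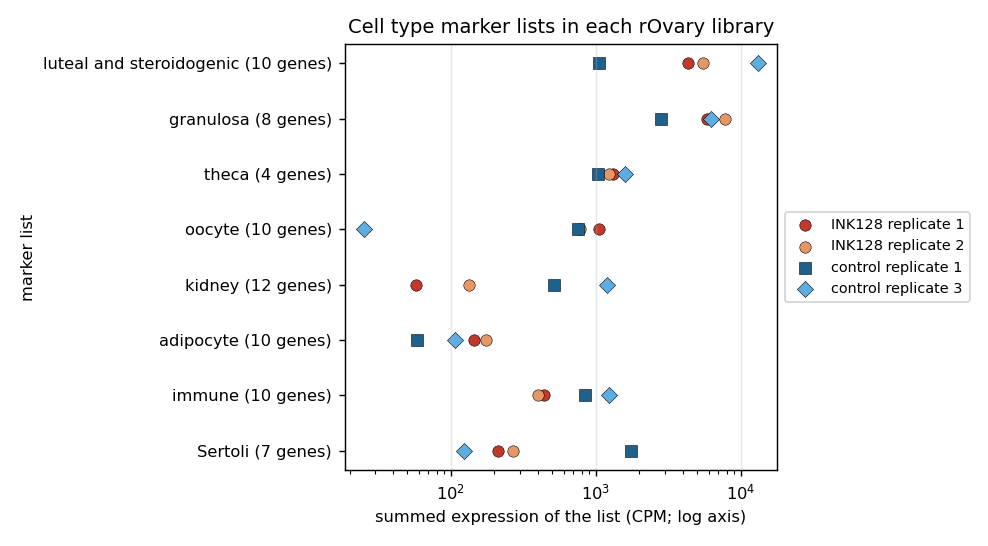
Summed CPM (log axis) of 8 lists of cell type markers, with 1 point per rOvary library. Luteal and steroidogenic markers are highest in control 3 and lowest in control 1, with both INK128-treated rOvaries between them, while kidney and immune markers are lower in the treated rOvaries than in either control.

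The synthesis genes showed 2 patterns. For 14 of the 18 sterol enzymes both INK128-treated rOvaries lay between the 2 controls, against 14.3% of all tested genes, and none of the 18 passed the test of INK128 against control. Control 3 was more than 2-fold above control 1 in 16 of the 18, against 6.51% of all tested genes. So wide a gap leaves more room for this placement, and the 14.3% is not a like comparison. Of the 6 fatty acid genes, 5 lay below both controls with INK128, against 33.3% of all tested genes, and Scd1, a stearoyl-CoA desaturase, fell by 2.32 on the log2 scale. Calls required more than a 1.5-fold change together with an adjusted p under 0.05 in edgeR's quasi-likelihood test. All 30 genes were among the 11758 tested, those whose mean CPM exceeded 10, and p-values were adjusted over all of these (Benjamini-Hochberg). SE is the standard error of a log2 fold change. By this rule 1 of the 30 genes, Scd1, was called lower and 0 were called higher, against 3.19% of all tested genes called lower and 3.18% called higher. At an unadjusted p below 0.05, 6 of the 30 genes passed, against 36.4% of all tested genes. With DESeq2, the tool of the study, 6 of the 30 were called lower (Scd1, Scd2, Acly, Acaca, Fasn and Insig2) and 0 higher, against 15.1% and 13.6% of all tested genes, while limma voom called 0 of them and 0 of all genes, with 6 of the 30 and 3979 of all genes at an unadjusted p below 0.05. The median log2 fold change of the 30 genes was -0.45, against -0.03 over all tested genes, and it depended on the control: it was -0.97 against control 3 alone and 0.39 against control 1 alone.

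**Figure D2:**
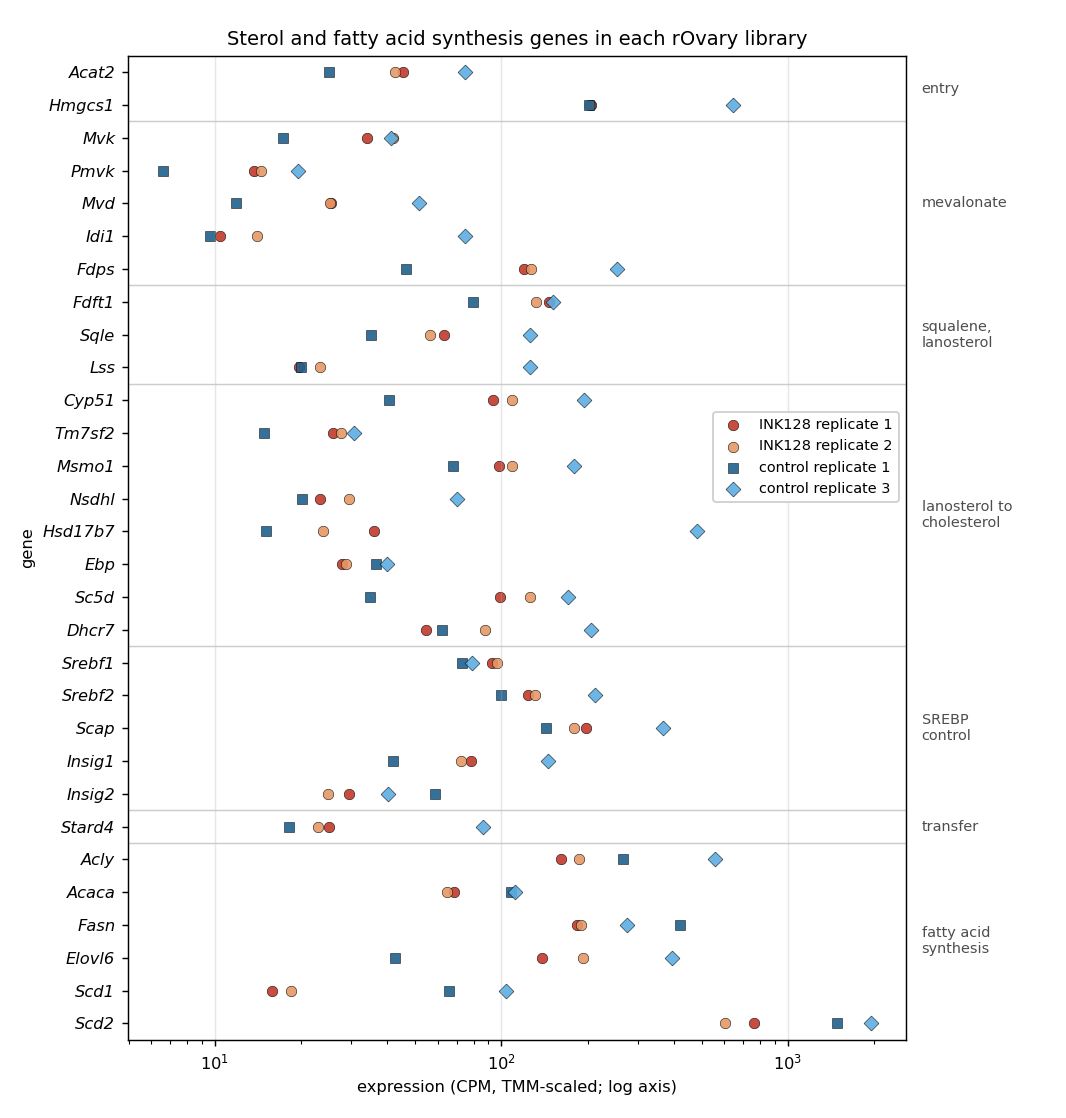
CPM (log axis) of the 30 synthesis genes, with 1 point per rOvary library and the genes ordered by their place in the pathway. The sterol enzymes mostly run from control 1 (left) through both INK128-treated rOvaries to control 3 (right), whereas Acly, Acaca, Fasn, Scd1 and Scd2 have both INK128-treated rOvaries to the left of both controls.

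In 19 of the 30 genes both INK128-treated rOvaries lay between the 2 controls, a placement found in 14.3% of all tested genes. In 7 of the 30 both lay below both controls (Ebp, Insig2, Acly, Acaca, Fasn, Scd1 and Scd2), against 33.3% of all tested genes, and in 1, Srebf1, both lay above, against 35.2%. The 3 remaining genes, Mvk, Lss and Dhcr7, overlapped the controls in another order. Control 3 was above control 1 in 28 of the 30 genes, against 51% of all tested genes, and more than 2-fold above it in 22 of the 30 genes, against 6.51% of all tested genes, and in none of the 30 was it more than 2-fold below. The 2 INK128-treated rOvaries were much closer to each other, with 29 of the 30 genes within 1.5-fold on the log2(CPM + 0.5) scale, Dhcr7 outside and Hsd17b7 just at that limit, and a median absolute difference of 0.15 on the log2 scale, against 1.53 between the controls. Over all tested genes, 11213 of 11758 were within 1.5-fold between the treated pair, and the medians were 0.17 and 0.36.

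Of the pair at the entry of the mevalonate pathway, Hmgcs1 encodes the cytosolic HMG-CoA synthase and Acat2 the thiolase that makes acetoacetyl-CoA. Hmgcs1, at chr13:119690379-119708260 of mm10, had 205 and 204 CPM after INK128, 202 CPM in control 1 and 643 CPM in control 3. Both treated grafts sat on the level of control 1, and control 3 alone was high, by 3.18-fold over the other control. Its log2 fold change was -1.06 ± 0.57 (SE), with adjusted p = 0.24 by edgeR. Acat2 had 25.0 CPM in control 1, 45.4 and 42.6 CPM in the treated grafts and 75.0 CPM in control 3, with a log2 fold change of -0.20 (edgeR adjusted p = 0.804). Acat2 has a close paralog, Acat3, and how reads shared by the pair were counted is uncertain.

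Apart from Mvk, the 5 enzymes that follow, from mevalonate to farnesyl diphosphate, had both treated grafts between the controls. Idi1, the isopentenyl diphosphate isomerase at chr13:8885501-8892451, had 9.61 CPM in control 1, 10.4 and 14.0 CPM in the treated grafts and 74.9 CPM in control 3. Control 3 was thus 7.8-fold above control 1, and both treated grafts were near the lower control. The log2 fold change of Idi1 was -1.81 (SE 0.97, edgeR adjusted p = 0.241). Fdps, the farnesyl diphosphate synthase, had 120.3 and 127 CPM with INK128, against 46.4 CPM in control 1 and 253 CPM in control 3, which put the treated grafts near the middle of the gap between the controls. Mvd, the mevalonate diphosphate decarboxylase, had 25.5 and 25.3 CPM after INK128, 11.9 CPM in control 1 and 51.6 CPM in control 3. Mvk and Pmvk, the kinases that act on mevalonate and phosphomevalonate, had treated grafts nearer to the higher control. Mvk had 33.9 and 41.8 CPM after INK128, 17.3 CPM in control 1 and 41.3 CPM in control 3. Pmvk had 13.7 and 14.5 CPM with INK128, against 6.61 CPM in control 1 and 19.5 CPM in control 3. Log2 fold changes of Fdps, Mvd, Mvk and Pmvk were between -0.33 and 0.36, with adjusted p-values from 0.592 to 0.908 in edgeR.

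Squalene synthase (Fdft1), squalene epoxidase (Sqle) and lanosterol synthase (Lss) lead from farnesyl diphosphate to the first sterol. Lss, at chr10:76531588-76557138, had 19.7 and 23.3 CPM after INK128, 20.0 CPM in control 1 and 126 CPM in control 3. As for Idi1, only control 3 was high, and the log2 fold change of -1.78 (SE 0.87, edgeR adjusted p = 0.209) was 0.09 without that library. Sqle, a rate-controlling enzyme of the later pathway, had 63.0 and 56.6 CPM after INK128, 35.2 CPM in control 1 and 126 CPM in control 3. Fdft1 had 146 and 133 CPM with INK128, against 79.6 CPM in control 1 and 152 CPM in control 3, so here the treated grafts were close to the higher control. Neither Sqle (log2 fold change -0.45, adjusted p = 0.617) nor Fdft1 (0.25, adjusted p = 0.614) was called by edgeR.

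Of the 8 enzymes that turn lanosterol into cholesterol, Hsd17b7 differed most between libraries. Its product is a 3-ketosteroid reductase of cholesterol synthesis that also reduces estrone to estradiol, and it is known from the corpus luteum as a protein associated with the prolactin receptor. Hsd17b7, at chr1:169949535-169969241, had 15.1 CPM in control 1, 36.0 and 23.9 CPM in the treated grafts and 483 CPM in control 3. Control 3 was 32.0-fold above control 1, the widest gap among the 30 genes, and the treated grafts lay far nearer to control 1. The log2 fold change was -3.07 ± 1.53 (SE), with adjusted p = 0.214 by edgeR. The luteal markers Prlr, the prolactin receptor, and Ptgfr, the prostaglandin F receptor, were also highest in control 3, and were picked from the 10 luteal markers after their values were seen. Prlr had 36.8 CPM in control 1, 124 and 111 CPM in the treated grafts and 761 CPM in control 3. Ptgfr had 3.18 and 3.84 CPM after INK128, 3.08 CPM in control 1 and 236 CPM in control 3, and as for Hsd17b7 its control 1 and both treated grafts were far below control 3. Not every luteal marker did so: Akr1c18, which inactivates progesterone, had 104 and 104 CPM after INK128, 3.61 CPM in control 1 and 41.6 CPM in control 3, and Fdx1, the ferredoxin of steroid synthesis, had 355 and 414 CPM after INK128, 48.7 CPM in control 1 and 502 CPM in control 3. The part of luteal cells in the level of Hsd17b7 was not tested.

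The other enzymes of this stretch differed less. Cyp51, the lanosterol demethylase, had 40.7 CPM in control 1, 93.4 and 109 CPM in the treated grafts and 195 CPM in control 3. Msmo1, the methylsterol monooxygenase, had 67.8 CPM in control 1, 98.1 and 109 CPM in the treated grafts and 180.0 CPM in control 3. Sc5d, the sterol C5 desaturase, had 99.0 and 126 CPM with INK128, against 34.7 CPM in control 1 and 171 CPM in control 3. In all 3 the treated grafts were well inside the range of the controls, and the log2 fold changes were between -0.27 and 0.12 with adjusted p-values from 0.7 to 0.919 (edgeR). Nsdhl, a sterol dehydrogenase, had 23.3 and 29.3 CPM after INK128, 20.1 CPM in control 1 and 70.1 CPM in control 3. Dhcr7, which makes cholesterol in the last step, had 54.8 and 87.4 CPM after INK128, 62.1 CPM in control 1 and 206 CPM in control 3, and it was the gene whose treated grafts were furthest apart, at 1.6-fold. Tm7sf2, the lanosterol C14 reductase, had 25.9 and 27.6 CPM with INK128, against 14.8 CPM in control 1 and 30.6 CPM in control 3. Ebp, the sterol isomerase, was the exception among the 18 sterol enzymes, with 27.8 and 28.6 CPM after INK128, 36.4 CPM in control 1 and 39.8 CPM in control 3. Its controls differed by 1.09-fold and both treated grafts lay below them, and its log2 fold change of -0.45 (SE 0.19, edgeR adjusted p = 0.165) did not pass the test.

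Over the 18 sterol enzymes as a list, control 3 was above control 1 in 18, by 1.09-fold to 32.0-fold with a median of 3.36-fold (a median log2 ratio of 1.75, against 0.01 over all tested genes). Luteal and steroidogenic markers ran in the same order of libraries. In 7 of 10 both INK128-treated rOvaries lay between the controls, against 14.3% of all tested genes. In 10 of 10 control 3 was higher than control 1, against 51% of all tested genes. Control 3 was also the higher control in 11 of 12 kidney, 9 of 10 immune and 6 of 8 granulosa markers, but in 0 of 10 oocyte and 1 of 7 Sertoli markers. Cyp11a1, the enzyme that cleaves the cholesterol side chain and so starts steroid synthesis, had 883 and 1162 CPM after INK128, 70.3 CPM in control 1 and 4014 CPM in control 3. Because each control is 1 library, luteal content and any other difference between these grafts cannot be told apart.

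**Figure D3:**
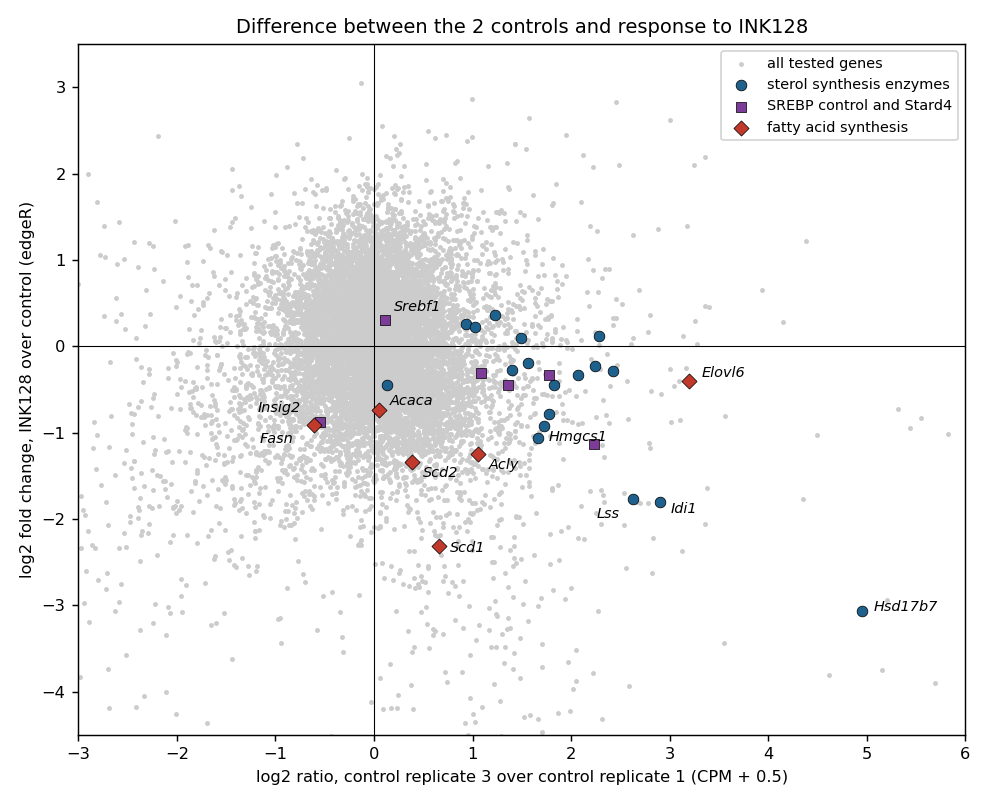
Log2 ratio of control 3 over control 1 (horizontal) and log2 fold change of INK128 over control in edgeR (vertical) for the tested genes, with 221 genes outside the axes not drawn. The sterol enzymes lie to the right, with control 3 above control 1 in all 18, while Acaca, Fasn, Scd1, Scd2 and Acly lie below 0, with control ratios from 0.653-fold for Fasn to 2.08-fold for Acly.

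Promoter sequences of sterol enzymes whose levels ran together are shown beside that of Fasn, which did not follow them. RefSeq windows of 250 bases before the transcription start on GRCm38.p6, the assembly of mm10, were found for 24 of the 30 genes, and the search for motifs used both strands. The CCAAT box, which binds NF-Y, a partner of SREBP, was found in 19 of the 24 genes (79.2%) and in 37.5% of all 27025 genes with a window. The GC box GGGCGG, a site of Sp1, was found in 20 of the 24 (83.3%) against 35.4% of all genes. The sterol regulatory element, searched as TCACNCCAC, was found in 1 of the 24, Hmgcs1, against 1.22% of all genes. The 27025 genes were not limited to the 11758 tested, so the shares set expressed members against genes of any level. A match describes these letters only and is not evidence of binding. Capitals mark CCAAT on either strand (ATTGG on the printed strand) and the sterol regulatory element, and each sequence runs 5′ to 3′ toward the start of the gene, without bases that GENCODE places inside the gene.
Hmgcs1: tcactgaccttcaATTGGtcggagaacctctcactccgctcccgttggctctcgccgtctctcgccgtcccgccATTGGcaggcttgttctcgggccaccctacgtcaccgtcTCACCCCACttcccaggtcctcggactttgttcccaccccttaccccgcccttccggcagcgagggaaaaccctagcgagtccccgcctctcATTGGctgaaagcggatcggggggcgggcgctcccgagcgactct
Lss: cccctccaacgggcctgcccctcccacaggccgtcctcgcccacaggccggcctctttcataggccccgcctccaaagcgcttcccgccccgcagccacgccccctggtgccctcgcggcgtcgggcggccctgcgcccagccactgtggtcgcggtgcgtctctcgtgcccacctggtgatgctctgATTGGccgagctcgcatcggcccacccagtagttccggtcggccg
Hsd17b7: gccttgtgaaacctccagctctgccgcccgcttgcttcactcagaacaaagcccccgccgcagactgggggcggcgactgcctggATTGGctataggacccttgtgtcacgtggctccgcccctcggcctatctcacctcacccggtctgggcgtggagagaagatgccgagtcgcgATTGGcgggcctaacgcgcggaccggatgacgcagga
Fasn: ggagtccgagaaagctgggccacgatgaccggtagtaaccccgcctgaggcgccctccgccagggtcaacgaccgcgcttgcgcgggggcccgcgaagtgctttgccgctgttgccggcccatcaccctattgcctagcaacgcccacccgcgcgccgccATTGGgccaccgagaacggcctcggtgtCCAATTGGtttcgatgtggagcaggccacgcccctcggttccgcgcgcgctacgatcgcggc
The Hmgcs1 window is chr13:119690101-119690350 (plus strand), and it holds 3 CCAAT boxes and the element TCACCCCAC. The Lss window is chr10:76531355-76531587 (plus strand), the Hsd17b7 window chr1:169969242-169969455 (minus strand) and the Fasn window chr11:120824548-120824797 (minus strand), with 1, 2 and 3 CCAAT boxes, and a pair of those of Fasn overlap in the run CCAATTGG. All of these windows hold the CCAAT box. The windows of Hmgcs1, Lss and Hsd17b7 also hold 2, 2 and 3 GC boxes, which are not marked, and that of Fasn holds 0. The part of either motif in the levels of these genes was not tested.

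The 5 genes that control SREBP did not share 1 order of libraries. Srebf1, at chr11:60199089-60222581, encodes the SREBP form that drives fatty acid genes and had 92.7 and 96.7 CPM with INK128, against 73.0 CPM in control 1 and 79.1 CPM in control 3. It was the 1 gene of the 30 with both treated grafts above both controls, at a log2 fold change of 0.30 (SE 0.16, edgeR adjusted p = 0.236) that did not pass the test. Srebf2, the form that drives sterol genes, had 99.99 CPM in control 1, 124 and 132 CPM in the treated grafts and 212 CPM in control 3. Scap had 143 CPM in control 1, 197 and 179 CPM in the treated grafts and 368 CPM in control 3. Both followed the order of the sterol enzymes, with treated grafts nearer to control 1 and log2 fold changes of -0.31 and -0.45 (adjusted p = 0.589 and 0.514, edgeR).

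Insig1 and Insig2, which retain the SCAP complex, ran in opposite orders between the controls. Insig1, itself a target of SREBP, had 78.3 and 72.2 CPM after INK128, 42.0 CPM in control 1 and 145 CPM in control 3. Insig2 had 29.3 and 24.8 CPM after INK128, 58.8 CPM in control 1 and 40.2 CPM in control 3, so that control 1 was the higher control and both treated grafts lay below the lower one. The log2 fold change was -0.33 for Insig1 (edgeR adjusted p = 0.707) and -0.88 for Insig2 (SE 0.27, edgeR adjusted p = 0.094), and DESeq2 called Insig2 (adjusted p = 0.0343) but not Insig1. Stard4, a sterol transfer protein that SREBP also controls, had 18.1 CPM in control 1, 25.0 and 23.0 CPM in the treated grafts and 86.6 CPM in control 3. Its pattern was that of Hmgcs1 and Lss, with 1 high library and a log2 fold change of -1.14 (SE 0.74, edgeR adjusted p = 0.318).

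Among the 6 fatty acid genes, 5 had both INK128-treated rOvaries below both controls, a placement of 33.3% of all tested genes. The desaturases Scd1 and Scd2 introduce the double bond that makes oleate and palmitoleate from saturated fatty acids. Scd1, at chr19:44394455-44407879, had 15.9 and 18.5 CPM with INK128, against 65.7 CPM in control 1 and 104 CPM in control 3, and the groups did not overlap. The mean of the treated pair was 17.2 ± 1.9 CPM (SD, n = 2) and that of the controls 84.9 ± 27.2 CPM (SD, n = 2). The log2 fold change was -2.32 (SE 0.30, edgeR adjusted p = 0.0464). This is the lowest adjusted p in the fit, and 503 genes share it. The call was lost at a filter of mean CPM above 1 (adjusted p = 0.0555), with exon length offsets (adjusted p = 0.0749), with GC offsets (adjusted p = 0.0506), in limma voom (adjusted p = 0.0599) and without INK128 replicate 1 (adjusted p = 0.381) or 2 (adjusted p = 0.438), with log2 fold changes from -2.44 to -2.18 (edgeR for all but voom). A fit without 1 treated graft assumes that the lone one varies like the controls. Scd2, a neighbour of Scd1 on the same chromosome at chr19:44293674-44306864, had 761 and 605 CPM after INK128, 1489 CPM in control 1 and 1948 CPM in control 3. Its treated grafts were also below both controls, and its log2 fold change of -1.34 (SE 0.24, edgeR adjusted p = 0.0507) missed the threshold, while DESeq2 called it (adjusted p = 1.18e-05). Scd2 was the most abundant of the 30 genes also per length, at 314 CPM per kb of exon in controls and 125 CPM per kb with INK128, against 17.3 and 3.51 CPM per kb for Scd1. As the pair is similar in sequence, reads shared by them are uncertain.

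Acly, Acaca and Fasn encode ATP-citrate lyase, acetyl-CoA carboxylase 1 and fatty acid synthase, the steps from citrate to palmitate. Acly, at chr11:100476353-100528000, had 162 and 186 CPM after INK128, 267 CPM in control 1 and 555 CPM in control 3, with a log2 fold change of -1.25 (SE 0.39, edgeR adjusted p = 0.0998). Fasn, at chr11:120805846-120824547, had 184 and 189.5 CPM with INK128, against 422 CPM in control 1 and 275 CPM in control 3, and unlike the sterol enzymes it was higher in control 1 (log2 fold change -0.91, SE 0.26, edgeR adjusted p = 0.0861). Acaca, at chr11:84129672-84401651, had 68.3 and 64.7 CPM after INK128, 108 CPM in control 1 and 112 CPM in control 3, with controls and treated grafts each in close agreement. The means of Acaca were 66.5 ± 2.55 CPM (SD, n = 2) in the treated pair and 110.1 ± 2.58 CPM (SD, n = 2) in controls, and between them lay a log2 fold change of -0.74 ± 0.16 (SE), with adjusted p = 0.0562 by edgeR. Acaca has the longest exon model of the 30 genes, 17074 bases, and with offsets for exon length in each library its log2 fold change was -0.06 (edgeR adjusted p = 0.828), while that of Fasn was -0.43, that of Acly -1.16 and that of Scd2 -1.23.

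Elovl6, the elongase that makes stearate from palmitate, stood apart from the other fatty acid genes. It had 139 and 193 CPM after INK128, 42.5 CPM in control 1 and 393 CPM in control 3, a 9.24-fold gap between the controls with the treated grafts inside it, and its log2 fold change of -0.40 (edgeR adjusted p = 0.785) was not called. In this it resembled the sterol enzymes and not its neighbours in the fatty acid pathway.

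Summed markers of kidney and immune cells were lower in the same rOvaries as the fatty acid genes. Over 12 kidney markers the summed level was 57.3 and 134 CPM after INK128, 514 CPM in control 1 and 1204 CPM in control 3. In 10 of the 12 both treated grafts lay below both controls, a placement of 33.3% of all tested genes. Over 10 immune markers it was 438 and 397 CPM after INK128, 843 CPM in control 1 and 1229 CPM in control 3, with 8 of 10 placed the same way. Fat cells were hardly represented, as Adipoq (adiponectin), Lep (leptin) and Ucp1 were at 0 or at 0.084 CPM at most, and Retn, Cfd and Cidec reached no more than 0.252 CPM in any library, whereas Plin1, a coat protein of lipid droplets, had 33.2 and 44.8 CPM after INK128, 2.91 CPM in control 1 and 15.4 CPM in control 3. Fabp4, a fatty acid binding protein, had 22.8 and 45.0 CPM after INK128, 5.42 CPM in control 1 and 9.99 CPM in control 3, so that both were higher in the treated grafts than in either control, the reverse of the 5 fatty acid genes. Summed over 10 fat cell markers, the level was 146 and 175 CPM after INK128, 58.3 CPM in control 1 and 107 CPM in control 3. Nearly all of this sum came from Plin1, Fabp4, Pparg and Lipe, which other cells also express. The part of kidney and immune RNA in the levels of these 5 genes was not tested.

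Each control was then left out in turn, since the 2 differed so widely for these genes. These fits take the spread from the INK128-treated rOvaries alone and assume that the single control varies like them, and they called 23.2% of all tested genes lower and 22.7% higher against control 3, and 21.4% lower and 21.2% higher against control 1. Against control 3 alone, 22 of the 30 genes were called lower and 0 higher. Against control 1 alone, 14 were called higher and 6 lower (edgeR in both). Of the 18 sterol enzymes, 13 were called lower against control 3, with a median log2 fold change of -0.99, and 12 were called higher against control 1, with a median of 0.80. The direction of the sterol enzymes under INK128 thus depended on which control was used, with Ebp as the exception. Against control 1 alone, 6 of the 18 were not called, with log2 fold changes from -0.38 for Ebp and 0.00 for Hmgcs1 to 0.38 for Nsdhl, while the highest was 1.69 for Sc5d.

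Against either control alone, Scd1, Scd2, Acly and Acaca were lower by more than 1.5-fold. Their treated grafts lay below both controls, a placement of 33.3% of all tested genes, so this direction was given beforehand. Both fits also use the same treated grafts. The log2 fold change of Scd1 was -2.61 against control 3 and -1.94 against control 1, and that of Scd2 was -1.52 and -1.14. For Acly the values were -1.69 and -0.63, and for Acaca -0.77 and -0.72. Fasn and Insig2 had -1.19 and -1.13 against control 1, and -0.57 and -0.58 against control 3, below the fold change limit (edgeR in all).

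**Figure D4:**
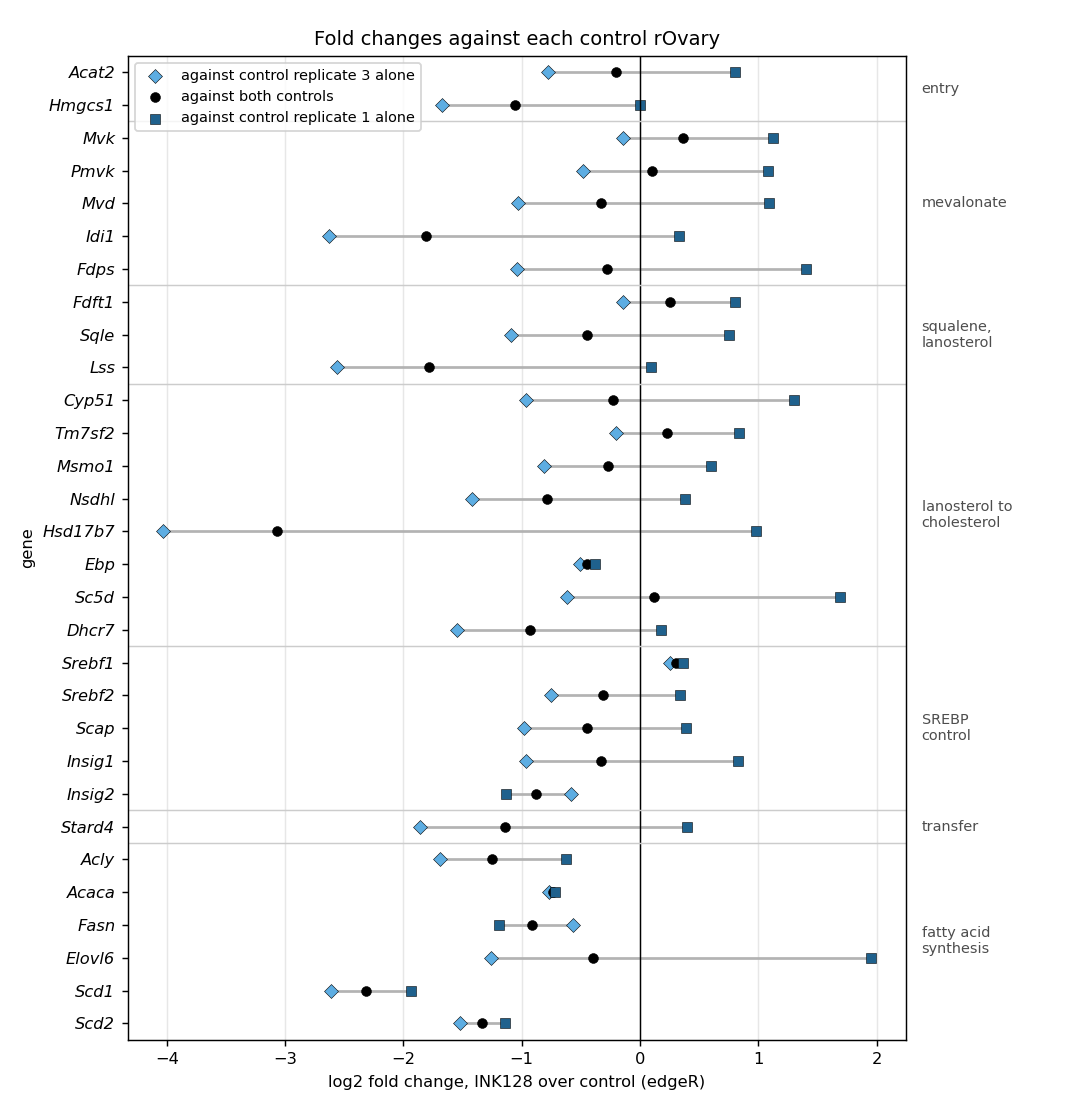
Log2 fold change of INK128 over control (edgeR) for each of the 30 genes, fitted with both controls (circles) or with control 3 (diamonds) or control 1 (squares) alone. The lines of most sterol enzymes cross 0, while those of Acly, Acaca, Fasn, Scd1, Scd2, Insig2 and Ebp stay on the negative side.

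A list of 50 further genes of sterol and fatty acid synthesis and its control was read from the same fit, 43 of which had a mean CPM above 10. None of the 43 was called by edgeR in either direction, while DESeq2 called 6 lower and 0 higher, against 15.1% and 13.6% of all tested genes. Both treated grafts lay below both controls in 18 of the 43, against 33.3% of all tested genes, above both in 9 (against 35.2%) and between them in 7 (against 14.3%), and the median log2 fold change was -0.27. Of the 43, 20 were genes of fatty acid synthesis and elongation. In these 20, both treated grafts lay below both controls in 8, above both in 5 and between them in 4. The median log2 fold change of the 20 was -0.18, so the wider list did not share the pattern of the 5 fatty acid genes. The 4 of the 43 with the largest changes were all lower with INK128 in both grafts than in both controls. Acsl4, an acyl-CoA synthetase that prefers arachidonate, had 36.3 and 41.7 CPM with INK128, against 112 CPM in control 1 and 315 CPM in control 3, with a log2 fold change of -2.46 (SE 0.54, edgeR adjusted p = 0.0586). Acss2, which makes cytosolic acetyl-CoA from acetate, had 13.2 and 16.2 CPM after INK128, 24.7 CPM in control 1 and 53.4 CPM in control 3 (log2 fold change -1.42, edgeR adjusted p = 0.0949). Lpin1, a phosphatidate phosphatase through which mTOR complex 1 is known to act on SREBP, had 14.6 and 11.9 CPM after INK128, 27.9 CPM in control 1 and 30.4 CPM in control 3 (log2 fold change -1.15, edgeR adjusted p = 0.0553). Me1, the malic enzyme that supplies NADPH for fatty acid synthesis, had 326 and 307 CPM after INK128, 469.5 CPM in control 1 and 869 CPM in control 3 (log2 fold change -1.09, edgeR adjusted p = 0.0988). Each of these 4, which were chosen for the size of their change, was called by DESeq2.

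Some of these values carry reads that could belong to a neighbouring gene, and the strand setting of the counting, on which overlaps between strands depend, was not given. Fdps shares 26.7% of its exon bases with Gm43738 on the same strand, whose values of 125 and 132 CPM after INK128 and 51.6 and 254 CPM in controls 1 and 3 are close to those of Fdps, so that the same reads may stand in both. Tm7sf2 shares 12.1% with Vps51, also on the same strand. On the opposite strand, Fdft1 shares 18.3% with Ctsb, Scap 13.2% with 5830462I19Rik and Hmgcs1 12.1% with the antisense gene Gm48342. Scd1, Acly, Acaca and Fasn overlapped no other annotated exon.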

How the data were processed

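RNA-seq of 4 rOvary libraries, 2 from INK128-treated and 2 from control G2 Terc-/- recipients, was analysed, with groups and replicate numbers from the sample titles. Per the study's methods, the authors used Trimmomatic for trimming, HISAT2 for alignment (mm10) and featureCounts for counting over genes of an annotation named RefGene (versions not given in the sources used here). The deposited values are raw counts per gene symbol, neither normalized nor pooled. From these counts, CPM with TMM factors (0.97 and 0.94 with INK128, 1.05 and 1.04 in controls) and edgeR's quasi-likelihood test were computed (edgeR 4.0.16, R 4.3.3). The study's limits were used, with its CPM limit taken as a mean over the 4 libraries: a CPM over 10, a change of more than 1.5-fold and an adjusted p under 0.05. Standard errors were the log2 fold change divided by the root of its F statistic. Log2 ratios between libraries used a pseudocount of 0.5. DESeq2 1.42.0 and limma voom (limma 3.58.1) were alternatives. The tests were tested on simulated data. Replicates were compared before use: log2 CPM correlated at 0.98 between the INK128-treated rOvaries and 0.806 between the controls (Pearson's r across genes), and both pairs differed by more than sampling noise. With 2 against 2, an exact two-sided permutation test of 1 gene cannot go below 0.333.

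Positions and merged exon lengths came from GENCODE M21 on mm10, which matched 53447 of the 54021 symbols, and promoters from RefSeq on GRCm38.p6. The 30 genes, the other lists and the motifs were chosen with earlier results of these data known. Named were all 30 genes and, of the 50 further pathway genes, those called or else the 4 with the largest absolute log2 fold change; marker lists were given as sums and counts, with single genes named where a result turned on them. Alternatives were the test, the scaling (RLE size factors, library totals), the filter, offsets for exon length and GC content, the thresholds and leaving out each library.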

Additional observations from a re-analysis of the deposited data

How the results depend on the processing

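No paired analysis was possible because the groups share only 1 replicate number. The median log2 fold change of the 30 genes was -0.97 to -0.25 in every alternative but 1, the fit without control replicate 3, where it was 0.39. Scd1, Scd2, Acly, Acaca, Fasn, Insig2, Ebp and Srebf1 kept their direction in all of them, though Srebf1 went from 0.30 to 0.05 with GC content offsets and Acaca from -0.74 to -0.06 with exon length offsets. Counts of calls moved widely. Of the 30 genes, 1 was called lower by edgeR, against 6 with DESeq2, 6 at an adjusted p below 0.1, 3 with library totals and 3 with at least 1 count. The count was 0 with limma voom, a mean CPM above 1, exon length offsets and GC content offsets, each with 6 of the 30 at an unadjusted p below 0.05. It ranged from 0 to 22 when 1 library was left out, the high value being without control replicate 1, and genes called higher ranged from 0 to 14, the high value being without control replicate 3. A fit with 1 library left out assumes that the lone library varies like the other group. Of the further pathway genes, 0 were called lower by edgeR, 6 with DESeq2, 6 at an adjusted p below 0.1 and 5 with at least 1 count, with 0 to 14 lower and 0 to 5 higher when 1 library was left out.

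Over all tested genes, 374 were called higher and 375 lower. DESeq2 gave 1595 and 1772, an adjusted p below 0.1 gave 1540 and 1591, and at least 1 count gave 1152 and 1953. Library totals gave 293 and 627, with the median of all genes shifted to -0.16 on the log2 scale. Limma voom, a mean CPM above 1, exon length offsets and GC content offsets gave 0 and 0, with 3979, 5797, 3137 and 4131 genes at an unadjusted p below 0.05. Leaving out 1 library gave 0 to 2664 higher and 0 to 2723 lower, and without INK128 replicate 1 or 2 there were 1525 and 1338 genes at an unadjusted p below 0.05 in edgeR.

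The log2 fold changes of 22 of the 30 genes changed sign when 1 control was left out, counting Hmgcs1, which was at 0.00 without control replicate 3. They ranged over the fits without 1 library from -0.78 to 0.80 for Acat2, -1.67 to 0.00 for Hmgcs1, -0.14 to 1.12 for Mvk, -0.48 to 1.08 for Pmvk, -1.03 to 1.09 for Mvd, -2.63 to 0.33 for Idi1, -1.04 to 1.40 for Fdps, -0.14 to 0.80 for Fdft1, -1.09 to 0.75 for Sqle, -2.56 to 0.09 for Lss and -0.96 to 1.30 for Cyp51. The range was -0.20 to 0.84 for Tm7sf2, -0.81 to 0.60 for Msmo1, -1.42 to 0.38 for Nsdhl, -4.03 to 0.98 for Hsd17b7, -0.62 to 1.69 for Sc5d, -1.55 to 0.18 for Dhcr7, -0.75 to 0.34 for Srebf2, -0.98 to 0.39 for Scap, -0.96 to 0.83 for Insig1, -1.86 to 0.40 for Stard4 and -1.26 to 1.95 for Elovl6. Other changes of sign came from other settings. With limma voom Acat2 had 0.00, Mvd 0.01, Fdps 0.18, Cyp51 0.17 and Elovl6 0.33. With exon length offsets Mvk had -0.01 and Pmvk -0.53, with GC content offsets Pmvk had -0.14, and with library totals Pmvk had -0.03 and Sc5d -0.02, while without INK128 replicate 2 Sc5d had -0.07. The cause of these changes was not tested. Each of the 30 genes had 150 counts or more in every library. Leaving out either treated graft ended the call of Scd1, at -2.22 without replicate 1 and -2.44 without replicate 2.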
